A study of Homo sapiens with 19 samples.

Results

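The nuclear wash of K562 cells was sequenced with and without depletion of ribosomal RNA (rRNA), and the libraries of both preparations are compared here over all human genes. They were chosen by their labels alone: 3 libraries made without depletion and 4 made with it, so 7 of the 19 libraries of the series. Each library has counts for 58051 human genes, of which 11627 had enough reads over exons to be tested. K562 is an established human erythroleukaemia line, and no treatment was given to any library. The other groups are depleted libraries of whole cells, cytoplasm and nucleus, with 4 each. The labels do not say how the wash fraction was made. Both groups of the wash share the extraction with Trizol LS, the synthetic yeast spike-in transcripts, 1 µg of input RNA and a SMARTer Stranded Total RNA kit. They differ in the depletion step alone, as far as the labels tell.

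In growing cells most RNA is rRNA, and a sequencing library of total RNA would be filled by it unless it is removed first. The cytosolic ribosome holds the 18S, 28S, 5.8S and 5S rRNAs, made in the nucleus, while the mitochondrial ribosome holds its own 12S and 16S rRNAs, made from mitochondrial DNA. Beside them a cell carries other abundant short structured RNAs, among them the small nuclear RNAs (snRNAs) of the spliceosome, the small nucleolar RNAs (snoRNAs) that guide rRNA modification, and the tRNAs. Which rRNAs the depletion step is aimed at is not given in the sources used here.

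Depleted libraries held 3377669 to 7165198 counts over human exons and undepleted ones 923464 to 1801293, so undepleted values carry more counting error. The number of genes with a count was 20920 to 24238 in depleted and 15679 to 17355 in undepleted libraries. The erythroid regulators GATA1 and TAL1 were found in all 7 libraries, at 53.5 to 79.8 and 58.8 to 80.7 CPM (read counts put on one scale across libraries). BCL11A, another erythroid marker on the list, had 2 counts in all 7 together. Of the lymphoid markers, MS4A1 was at 0 in every library, and PTPRC, at 110.0 to 168 CPM, made up nearly all of the list's sum of 110.0 to 170 CPM. The 4 epithelial markers summed to 469 to 799 CPM in depleted and 751 to 849 CPM in undepleted libraries, with CDH1 at 5 counts in all. KRT18 was higher without depletion (1.09 on the log2 scale, edgeR adjusted p = 0.0123, but 0.0669 and 0.0663 without undepleted replicates 2 and 3). Fibroblast or endothelial markers summed to 79.5 to 104 and 90.7 to 119 CPM. The part of these marker levels in the results below was not tested.

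Values per library are given in the order of depleted replicates 1, 2, 3 and 4 and then undepleted replicates 1, 2 and 3. The column names tie undepleted replicates 1, 2 and 3 by a shared prefix to depleted replicates 2, 3 and 4, and depleted replicate 1 has no partner. CPM was computed with library sizes scaled so that the typical gene shows no change, and the CPM of all genes sums to 801400 to 919100 in depleted and 1047000 to 1379000 in undepleted libraries. Fold changes are log2, undepleted minus depleted, with a standard error (SE), and adjusted p-values come from the quasi-likelihood test of edgeR with Benjamini-Hochberg adjustment over all tested genes, called under 0.05. Higher or lower always refers to the undepleted libraries.

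Without depletion, 917 of the 11627 genes were higher and 405 were lower, which is 7.89% and 3.48% of the genes tested and 11.4% in either direction. A change of at least 2-fold was seen in 550 higher and 154 lower genes. The median over all tested genes was -0.04 and the range was -6.88 to 10.25. With the column prefix as a block, 1970 genes were higher and 1920 lower, 16.8% and 16.3% of 11744 and 33.1% in either direction. The block fit rests on 3 pairs and borrows its estimate of spread across genes. Its very small p-values, here and below, do not measure the spread of those pairs alone. Of the 1319 calls that both fits could test, 1311 were also called with the block, all of them in the same direction. Within prefix 1 of the column names (depleted replicates 1 and 2, undepleted replicate 1) 244 genes were higher and 39 lower, and within prefix 2 (the other 4 libraries) 1627 and 1067. The number of calls rested on single libraries: it was 480 (407 higher, 73 lower) without undepleted replicate 3, 485 (409 and 76) without undepleted replicate 2, 797 (602 and 195) without depleted replicate 2 and 824 (630 and 194) without depleted replicate 3. Without the composition scaling the median of all genes moved to -0.56 and the split turned to 403 higher and 3611 lower, and scaling by the spike-ins gave a median of -0.26 with 331 higher and 141 lower. The log2 values below are therefore changes relative to the typical gene.

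The gene with the widest difference was MT-RNR1 (chrM:648-1601, plus strand), the 12S rRNA of the mitochondrial small subunit. It took 0.00755%, 0.00500%, 0.00576% and 0.0192% of the exon counts in the depleted libraries and 7.16%, 8.52% and 8.56% in the undepleted ones. The means were 0.00938% ± 0.00665 (SD, n = 4) and 8.08% ± 0.799 (SD, n = 3), an 861-fold difference. The groups were far apart, and depleted replicate 4 was the highest depleted library. The exact permutation test gave a two-sided p of 0.0571, the smallest that 3 against 4 libraries allow, or 0.114 adjusted over the 12 shares computed. In the fit over all genes its log2 fold change was 10.25 ± 0.63 (SE, adjusted p = 1.75e-05).

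MT-RNR2 (chrM:1671-3229, plus strand) encodes the 16S rRNA of the mitochondrial large subunit and is transcribed from the same strand, but it did not follow that pattern. Its share was 22.3%, 17.8%, 24.3% and 26.2% in the depleted libraries and 24.2%, 34.9% and 36.5% in the undepleted ones. Depleted replicates 3 and 4 lay at or above undepleted replicate 1, so the groups overlapped, at 22.7% ± 3.64 (SD, n = 4) and 31.9% ± 6.68 (SD, n = 3), and the exact permutation test gave p = 0.171. Each undepleted library was nonetheless above its partner of the same prefix, by 6.46, 10.6 and 10.3 percentage points. On the scale of the typical gene the log2 fold change was 1.02 ± 0.28 (adjusted p = 0.0387). This call was lost without depleted replicate 2, 3 or 4 (adjusted p = 0.082, 0.0942 and 0.0636) and without undepleted replicate 2 or 3 (0.142 and 0.186). With the block it was 3.54e-16, in a fit of 3 pairs that borrows its estimate of spread across genes. In the other depleted groups of the series the 12S share was as low as in the depleted wash, 0.00172 to 0.0198% in whole cells, 0.00617 to 0.0254% in cytoplasm and 0.000967 to 0.00487% in nuclei, while 16S took 16.3 to 17.8%, 18.9 to 22.7% and 4.92 to 9.65%. The plot of levels by library sets both mitochondrial rRNAs beside the nuclear rRNA loci and other RNAs.

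**Figure D1:**
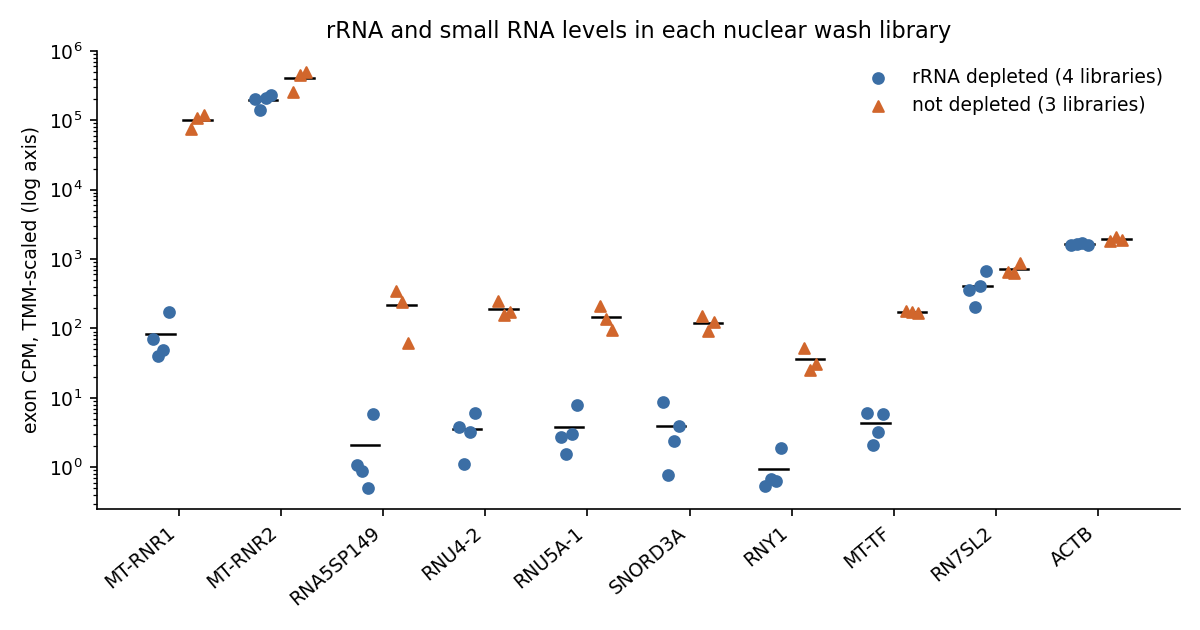
CPM in each of the 7 wash libraries on a log axis, with one point per library and a line at the mean, for 10 genes named in the text. MT-RNR1 lies between 40.04 and 172 CPM in the 4 depleted libraries and at 74930 CPM or more in all 3 undepleted ones, whereas the groups lie close together for MT-RNR2.

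The nuclear rRNAs were followed through annotated genes, pseudogenes and a few other loci that overlap rRNA sequence. No gene annotated as rRNA or rRNA pseudogene overlaps a RefSeq 18S or 28S gene or pseudogene. The shares below therefore leave out the 18S and 28S rRNAs and do not measure cytosolic rRNA as a whole. Genes annotated as nuclear-encoded rRNA or rRNA pseudogenes together took 0.00181% ± 0.000694 (SD, n = 4) of the depleted counts and 0.0573% ± 0.0332 (SD, n = 3) of the undepleted ones, a 31.8-fold difference. The undepleted libraries held 0.0916%, 0.0551% and 0.0252%, all above the highest depleted library at 0.00283% (exact permutation p = 0.0571, adjusted 0.114). Of 23 annotated genes that overlap a RefSeq 45S, 18S, 28S or 5.8S gene or pseudogene, 4 were tested and 3 were higher. Over all tested genes the share that was higher was 7.89%. The 3 higher ones had 8, 26 and 0 counts over the depleted libraries, so they had enough reads to be tested only through the undepleted ones. CTNNAL1, a protein-coding gene on the list only because a 5.8S pseudogene lies within it, was at -0.13 and did not pass. How reads shared between copies were counted is not given in the sources used here, so the level of any single copy is uncertain.

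FP671120.4, annotated as a long noncoding RNA at chr21:8254592-8255514 on the minus strand, lies inside the RefSeq 18S pseudogene RNA18SP5. Its CPM was 0, 0.224, 0.378 and 0.443 in depleted and 364, 384 and 266 in undepleted libraries, which do not overlap. The log2 fold change was 10.05 ± 0.32 (adjusted p = 7.15e-09). AC010970.1 (chrY:10197256-10199103, minus strand) is a processed pseudogene that matches the RefSeq 18S pseudogene RNA18SP2. It stood at 1.91, 0.447, 0 and 2.22 CPM in depleted and 183, 270 and 376 CPM in undepleted libraries (8.09 ± 0.62, adjusted p = 8.19e-05). Both genes are annotated on the minus strand, and without a stated strand setting their reads cannot be assigned to a strand. RNA5-8SP6, a pseudogene of the 5.8S rRNA, had no count in any depleted library and 8 in each undepleted one, which is at least 68.3-fold higher when 3 counts over the depleted group are taken as the floor. The microRNA gene MIR3648-1, inside a 45S gene, went the other way with 66 counts in depleted and 0 in undepleted libraries. It was too low to be tested.

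The 5S rRNA, the smallest RNA of the large cytosolic subunit, was seen at 1 of its 17 RNA5S genes and at scattered copies. RNA5S9 and 5 of the copies are described here, and all were higher without depletion. RNA5S9 had 0.272, 0, 0 and 0.296 CPM in depleted and 34.0, 18.6 and 14.2 CPM in undepleted libraries. With 3 depleted counts against 69, the ratio of the summed levels was 197, with an exact 95% interval of 64.5 to 976 that covers counting error only. RNA5SP149 was at 1.09, 0.895, 0.504 and 5.91 CPM in depleted and at 346, 242 and 62.2 CPM in undepleted libraries. Depleted replicate 4 was the highest of its group and its partner, undepleted replicate 3, the lowest of the other, and the groups did not overlap. The fold change was 6.68 ± 0.83 (adjusted p = 0.00219, but 0.0679 with the block). RNA5SP429, at 0, 0.447, 0.378 and 2.96 against 203, 144 and 91.6 CPM, gave 7.16 (adjusted p = 0.000169). RNA5SP145 gave 6.82, RNA5SP202 6.45 and RNA5SP150 5.95, all with adjusted p under 0.05. Of the 490 rRNA pseudogenes, 10 passed the filter on low counts, 9 of these were higher and the median was 6.70, with RNA5SP236 at 0.97 not passing the test. A gene near 0 in depleted libraries could enter only through the undepleted ones, so such counts describe the tested genes and not the family. The other RNA5S genes were at 0 in all 7 libraries, as were 7 of the 8 genes of the 5.8S rRNA.

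The snRNAs were the next group. They form the core of the spliceosome, in which U1 and U2 recognise the intron and U4, U5 and U6 join as a larger particle. All 1909 annotated snRNA genes together took 0.0142%, 0.0142%, 0.0134% and 0.0204% of the depleted counts and 0.196%, 0.118% and 0.0909% of the undepleted counts. The groups did not overlap and the means differed 8.70-fold (exact permutation p = 0.0571, adjusted 0.114). Of the 31 that passed the filter, 29 were higher and none lower, with a median of 4.84, but genes near 0 in depleted libraries entered only through the undepleted ones. Without the filter 69 of 606 were higher and none lower, with a median of -1.18, and in a fit of all 19 libraries 32 of 71 were, with a median of 1.01. Counts and medians of the families below describe their tested genes in the same way. RNU1-1, a functional U1 gene, had 4 counts in depleted and 0 in undepleted libraries.

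U4 was the snRNA with the clearest values. Its 2 functional genes differ at 4 of 141 bases, shown in capitals in RNU4-1 (chr12:120293097-120293237, minus strand) against RNU4-2 (chr12:120291763-120291903, minus strand), so reads outside these bases cannot be told apart. The snRNA and tRNA sequences printed here are from the GENCODE 29 transcripts on GRCh38.
RNU4-2: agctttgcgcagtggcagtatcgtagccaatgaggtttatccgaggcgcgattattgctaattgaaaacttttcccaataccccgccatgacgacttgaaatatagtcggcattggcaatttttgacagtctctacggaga
RNU4-1: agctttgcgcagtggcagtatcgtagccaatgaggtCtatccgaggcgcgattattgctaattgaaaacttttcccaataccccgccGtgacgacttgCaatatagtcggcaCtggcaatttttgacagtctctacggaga
RNU4-2 was at 3.81, 1.12, 3.27 and 6.06 CPM in depleted and 252, 156 and 170 CPM in undepleted libraries. Every undepleted library was far above every depleted one, and the fold change was 5.79 ± 0.41 (adjusted p = 3.55e-05). RNU4-1 followed with 2.99, 1.90, 5.04 and 8.57 against 248, 156 and 156 CPM and a fold change of 5.31.

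U5, the snRNA that holds the exons together, had 8 tested genes and all were higher, with a median of 4.23. RNU5A-1 was at 2.72, 1.57, 3.02 and 7.98 CPM in depleted and 214, 136 and 96.0 CPM in undepleted libraries (5.27). RNU5F-1 moved least, from 13.6, 13.0, 17.9 and 36.2 CPM to 174, 116 and 57.8 CPM (2.51). With the block its adjusted p was 0.171 and that of RNU5B-1 0.108, so 6 of the 8 were called there. Of 9 tested U1 genes 8 were higher (median 4.84), with RNU1-98P at 6.02, and with the block all 9. Of 7 tested U2 genes 6 were higher (median 4.91), with the copy RNU2-50P at 0.272, 0.224, 0 and 0.739 CPM in depleted and 30.6, 20 and 54.5 CPM in undepleted libraries (6.73). For U6, the catalytic snRNA, 1276 genes and copies are annotated, 901 were at 0 everywhere and 3 were tested. All 3 were higher, and RNU6-9 went from 0, 0.224, 0.378 and 2.81 CPM to 53.3, 47.9 and 49.1 CPM (5.78). The snRNAs RNU4ATAC and RNU6ATAC of the minor spliceosome, which removes a rare class of introns, were also higher, at 2.31 and 4.35.

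**Figure D2:**
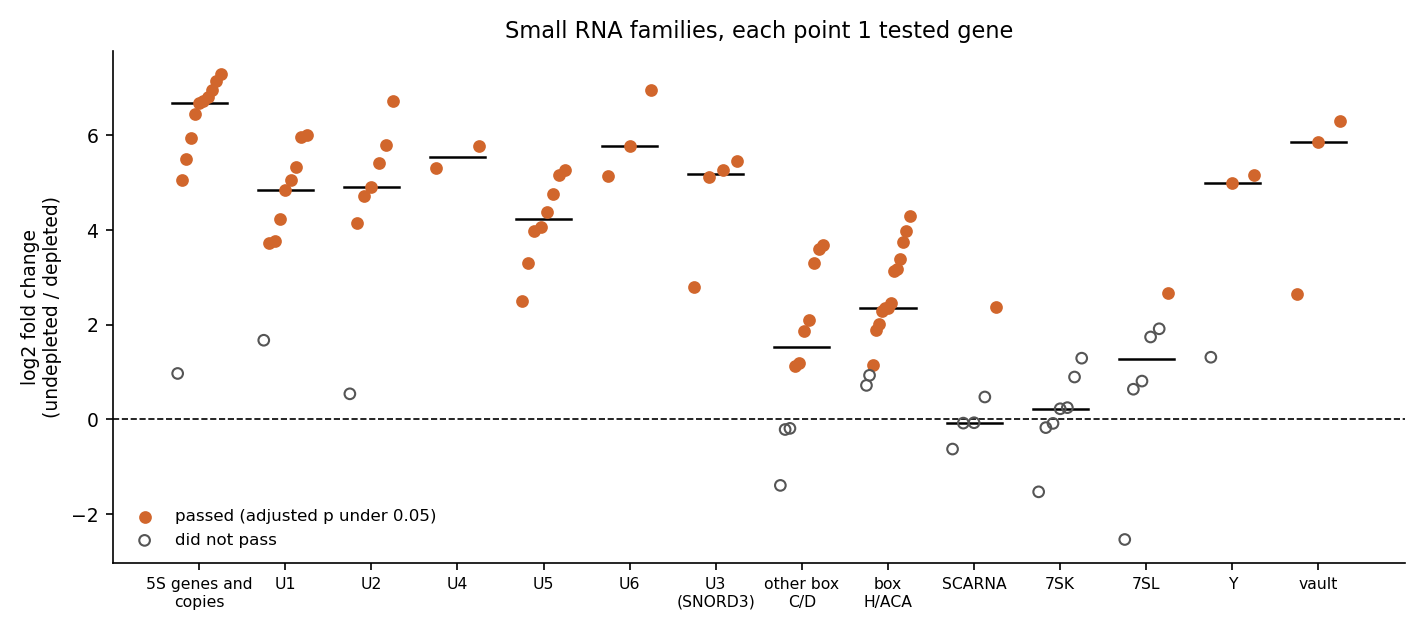
Log2 fold change of undepleted over depleted wash for each tested gene, one point per gene, by small RNA family, filled where the test was passed, with a line at the median. U1, U2, U4, U5, U6 and U3 have medians between 4.23 and 5.78, and 7SK copies lie around 0 with a median of 0.22.

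The nucleolar and cytoplasmic small RNAs were not uniform, as the plot of fold changes by family shows. SNORD3A encodes U3, the snoRNA needed to cut the rRNA precursor. It was at 8.71, 0.783, 2.39 and 3.99 CPM in depleted and 150, 90.7 and 124 CPM in undepleted libraries (5.12 ± 0.53, adjusted p = 0.000531), and all 4 tested U3 genes were higher with a median of 5.20. The other box C/D snoRNAs, which guide 2'-O-methylation, had 7 of 10 tested genes higher and a median of 1.52. Of the box H/ACA snoRNAs, which guide pseudouridylation, 13 of 15 were higher with a median of 2.35. Of the 5 tested RNAs of the Cajal body (SCARNA genes) 1, SCARNA21, was higher at 2.37, and the median was -0.07. None of the tested genes of these families was lower. Over all 35 tested snoRNA and scaRNA genes 25 were higher, and without depleted replicate 2 16 of the 26 then tested. The median was 2.28, against 0.44 without the filter on low counts, where 43 of 280 were higher, and 1.63 in the fit of all 19 libraries, where 38 of 100 were. Counts over these genes can include reads of the host genes whose introns hold many of them.

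Y RNAs, which bind the Ro protein, and vault RNAs, part of a large cytoplasmic particle, gave 5 higher genes of 6 tested. RNY1 was at 0.544, 0.671, 0.629 and 1.92 CPM in depleted and 52.2, 25 and 30.5 CPM in undepleted libraries (5.16), and RNY4 was at 5.0. The third tested Y gene, RNY3, was at 1.31 and did not pass (adjusted p = 0.203). The 3 tested vault genes VTRNA1-2, VTRNA1-1 and VTRNA1-3 were at 6.31, 5.85 and 2.66. By contrast, few calls were seen among tested genes and copies of the signal recognition particle RNA (7SL) and tested copies of the transcription regulator 7SK. RN7SL2 was at 360, 206, 415 and 664 CPM in depleted and 651, 627 and 886 CPM in undepleted libraries. Depleted replicate 4 was above undepleted replicates 1 and 2, so the groups overlapped and the value of 0.81 did not pass (adjusted p = 0.136). It passed without depleted replicate 4, at 1.15 with adjusted p = 0.0201. The copy RN7SL4P was the 1 called gene among 6 tested 7SL genes and copies, at 2.67, and with the block 3 were higher and 1 lower. Of 7 tested 7SK copies none was called (1 with the block). The functional genes RN7SK and RN7SL1 were at 0 in all 7 libraries, like RMRP and RPPH1, the RNA subunits of RNase MRP and RNase P. The 7SK values are therefore those of copies alone.

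MIR1246 is a microRNA gene whose mature sequence is also part of another small RNA. The gene (chr2:176600980-176601052, minus strand) had 0, 0, 0 and 1.03 CPM in depleted and 10.2, 12.9 and 17.4 CPM in undepleted libraries (5.56 ± 0.77, adjusted p = 0.00112). Its mature sequence, from the RefSeq miRNA table on GRCh38.p14 (chr2:176601024-176601042), is found whole in U2 snRNA. The capitals below mark the run of 19 bases that both share, within bases 73 to 133 of the 191 of RNU2-1 (chr17:43233787-43233977, minus strand).
hsa-miR-1246: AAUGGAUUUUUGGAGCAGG
RNU2-1: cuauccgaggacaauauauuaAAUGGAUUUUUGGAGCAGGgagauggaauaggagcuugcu
RNU2-1 itself had no count in any of the 7 libraries. Whether the reads at MIR1246 came from the microRNA gene or from U2 cannot be told apart in gene counts.

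In 87 small RNA genes that were higher, 12S and 16S rRNA included, the libraries within a group kept an order. Depleted replicate 4 was the highest depleted library for 64 of the 87 and depleted replicate 2 for 2. Undepleted replicate 1 was the highest undepleted library for 54. Without the 12S and 16S rRNA these genes summed to 341 to 541 CPM in depleted and 3411 to 5194 CPM in undepleted libraries. The part of this order in the fold changes was not tested.

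Mitochondrial tRNAs are cut out of long transcripts that run around both strands of the mitochondrial genome, in which they punctuate the rRNAs and mRNAs. The 22 together took 0.0600%, 0.0489%, 0.0496% and 0.0478% of the depleted counts and 0.174%, 0.167% and 0.116% of the undepleted counts. The groups were apart, 2.95-fold (exact permutation p = 0.0571, adjusted 0.114). Of 21 tested, 14 were higher and 2 lower, with a median of 2.38. That is 66.7% and 9.52%, beside 7.89% and 3.48% of all genes. The 13 tested on the plus strand had 10 higher and 1 lower and a median of 3.33, and the 8 on the minus strand had 4 higher and 1 lower and a median of 0.56. The difference between the strands was not tested.

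The sequences of 2 tRNAs that were strongly higher, MT-TF for phenylalanine (chrM:577-647, plus strand) and MT-TH for histidine (chrM:12138-12206, plus strand), and of the 2 that were lower, MT-TM for methionine (chrM:4402-4469, plus strand) and MT-TN for asparagine (chrM:5657-5729, minus strand), are given with the anticodon in capitals. These tRNAs are 68 to 73 bases long and were picked by the direction of their change. The part of length was not tested.
MT-TF: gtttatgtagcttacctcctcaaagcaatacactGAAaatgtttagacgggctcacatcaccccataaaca
MT-TH: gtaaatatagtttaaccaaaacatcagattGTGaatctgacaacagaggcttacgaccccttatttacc
MT-TM: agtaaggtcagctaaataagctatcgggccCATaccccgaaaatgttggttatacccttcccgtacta
MT-TN: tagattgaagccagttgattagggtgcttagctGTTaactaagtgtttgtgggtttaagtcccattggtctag
MT-TF, which lies directly before the 12S gene, was at 5.99, 2.13, 3.27 and 5.91 CPM in depleted and 181, 174 and 168 CPM in undepleted libraries (5.40 ± 0.29, adjusted p = 2.46e-06). MT-TV, between the 12S and 16S genes, was at 5.99, 3.58, 9.32 and 29.1 CPM against 314, 284 and 141 CPM (4.35, adjusted p = 0.00602, but 0.108 with the block). MT-TH was at 1.09, 1.34, 1.64 and 2.81 CPM against 55.6, 47.9 and 43.6 CPM (4.78). In all 3 tRNAs every undepleted library was above every depleted one.

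The serine tRNAs MT-TS2 and MT-TS1 were higher by 5.13 and 3.06, the glycine tRNA MT-TG by 4.18 and the cysteine tRNA MT-TC by 3.44. The arginine tRNA MT-TR (4.14) and the threonine tRNA MT-TT (1.71) were called as well, with adjusted p of 0.0664 and 0.133 with the block. MT-TN stood at 23.4, 19.6, 25.1 and 13.4 CPM in depleted and 1.13, 1.43 and 2.18 CPM in undepleted libraries (-3.67 ± 0.46, adjusted p = 0.000522). No other called gene that averaged 10 CPM or more and did not overlap between groups decreased as much. MT-TM, at 37.6, 26.5, 25.1 and 24.5 CPM against 10.2, 11.4 and 13.1 CPM, was at -1.28 (adjusted p = 0.00867), a call lost without undepleted replicate 2 (0.06). The tRNAs MT-TQ, MT-TA, MT-TD, MT-TK and MT-TE lay between 0.01 and 0.44 and did not pass.

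**Figure D3:**
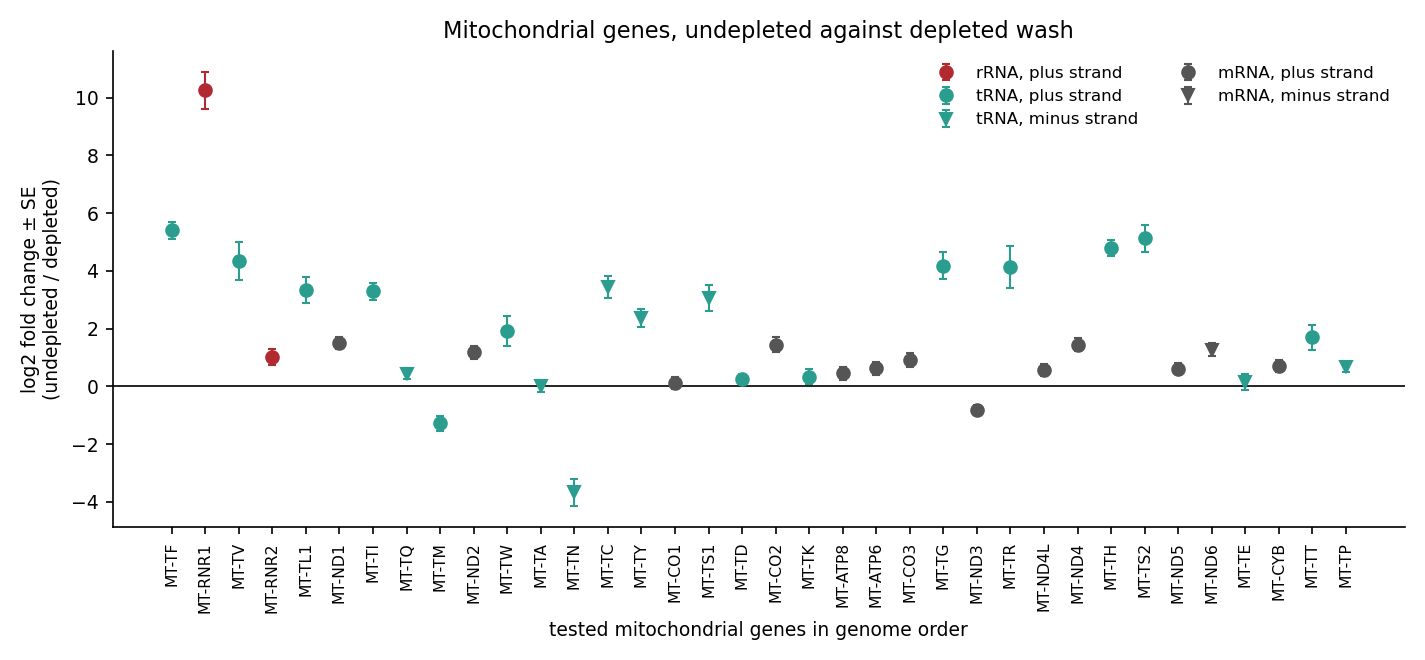
Log2 fold change, with its SE, of the mitochondrial rRNAs, tRNAs and mRNAs, in their order around the mitochondrial genome and marked by strand. MT-RNR1 stands highest at 10.25, MT-TN lowest at -3.67, and most mRNAs lie between 0 and 1.49.

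The 13 mitochondrial mRNAs encode subunits of the respiratory chain and the ATP synthase. Together they took 6.02% ± 0.503 (SD, n = 4) of the depleted and 7.25% ± 0.944 (SD, n = 3) of the undepleted counts, with overlapping groups (exact permutation p = 0.114). With rRNA genes left out of the total, the difference went from 1.23 to 4.48 percentage points (exact permutation p = 0.0571). Relative to the typical gene, 7 were higher and 1 lower, with a median of 0.70, which was 0.19 without the composition scaling. The higher and lower ones were 53.85% and 7.69%, beside 7.89% and 3.48% of all genes. With the block 11 were higher and 1 lower, beside 16.8% and 16.3% of all genes. Without undepleted replicate 2 or 3 the count was 4 higher and 1 lower, within prefix 1 (depleted replicates 1 and 2 and undepleted replicate 1) none was called, and within prefix 2 11 were higher and 1 lower.

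MT-ND1, a membrane subunit of complex I, was at 2902, 1747, 2003 and 2014 CPM in depleted and 4943, 6787 and 6537 CPM in undepleted libraries (1.49 ± 0.21, adjusted p = 0.000968), with no overlap. MT-ND4 and MT-CO2, subunits of complexes I and IV, were both at 1.45, MT-ND6 at 1.27, MT-ND2 at 1.18, MT-CO3 at 0.92 and MT-CYB at 0.70. MT-ND3, another complex I subunit and one of the shortest of these mRNAs, was the lower one, with 1017, 845, 912 and 835 CPM in depleted and 489, 545 and 505 CPM in undepleted libraries (-0.81 ± 0.15, adjusted p = 0.00623). MT-CO1, the core of complex IV, overlapped between groups and was at 0.11 (adjusted p = 0.769).

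Ribosomal protein mRNAs divided into a few wide differences and many small ones. All 79 were tested, 38 were higher and 2 lower, and the median was 0.51. The higher and lower ones were 48.1% and 2.53%, beside 7.89% and 3.48% of all genes. With the block 46 of 78 were higher and 12 lower, beside 16.8% and 16.3% of all genes. Without undepleted replicate 2 or 3 the counts were 23 higher and 1 lower. Without the composition scaling they were 20 higher and 17 lower with a median of 0.01, so the direction of the whole group depends on the scaling. Their share of all counts was 1.79% ± 0.135 (SD, n = 4) in depleted and 1.93% ± 0.0858 (SD, n = 3) in undepleted libraries, and these overlapped (exact permutation p = 0.171). With rRNA genes left out of the total, the difference went from 0.143 to 0.918 percentage points (exact permutation p = 0.0571).

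RPS27, a protein of the small subunit, was at 25.6, 10.4, 11.5 and 12.4 CPM in depleted and 179, 236 and 210 CPM in undepleted libraries (3.85 ± 0.29, adjusted p = 1.97e-05). RPS15, also of the small subunit, was at 102, 61.9, 77.0 and 71.7 CPM against 663, 808 and 1051 CPM (3.43 ± 0.22, adjusted p = 3.74e-06). For both genes the lowest undepleted library was several times above depleted replicate 1, the highest depleted one. RPL19, of the large subunit, was at 247, 69.1, 147 and 178 CPM against 1031, 1196 and 1408 CPM (2.92), RPLP2 of the stalk was at 2.40 and RPL28 at 2.33. In the other direction RPS21 was at 262, 276, 465 and 376 CPM against 107, 162 and 125 CPM (-1.38 ± 0.24, adjusted p = 0.00365). Of 44 tested ribosomal protein pseudogenes, which share sequence with the genes, 9 were higher and 3 lower and the median was 0.12. That is 20.45% and 6.82%, beside 7.89% and 3.48% of all genes. RPS14P8 (3.35) and RPS28P7 (2.00) were among the higher ones, and RPS2P5 (-1.24, adjusted p = 0.0767 without undepleted replicate 2) among the lower ones.

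Replication-dependent histone mRNAs end in a stem-loop in place of a poly(A) tail. Of 70 annotated genes 48 were tested, 22 were higher and none lower, and the median was 0.64, or 0.13 without the composition scaling. The higher genes were 45.8% of those tested, beside 7.89% of all genes (16.8% higher and 16.3% lower with the block). The count of higher genes was 28 with the block, which also called 2 lower, and it was 11 without undepleted replicate 2 and 14 without undepleted replicate 3. H2AC16, a histone H2A gene, was at 8.98, 4.14, 5.41 and 6.50 CPM in depleted and 49.9, 45.7 and 46.9 CPM in undepleted libraries, which lie apart (2.97 ± 0.25, adjusted p = 3e-05). The histone H4 gene H4C4 was at 1.92. H4C3, another H4 gene, overlapped between groups at -0.84 and did not pass, but was called with the block (-0.94, adjusted p = 6.38e-06). Histone genes resemble one another closely, so single members are uncertain. Their summed share was 0.383% and 0.421%, with overlap (exact permutation p = 0.457). With rRNA genes left out of the total, the difference went from 0.0383 to 0.205 percentage points (exact permutation p = 0.0571).

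**Figure D4:**
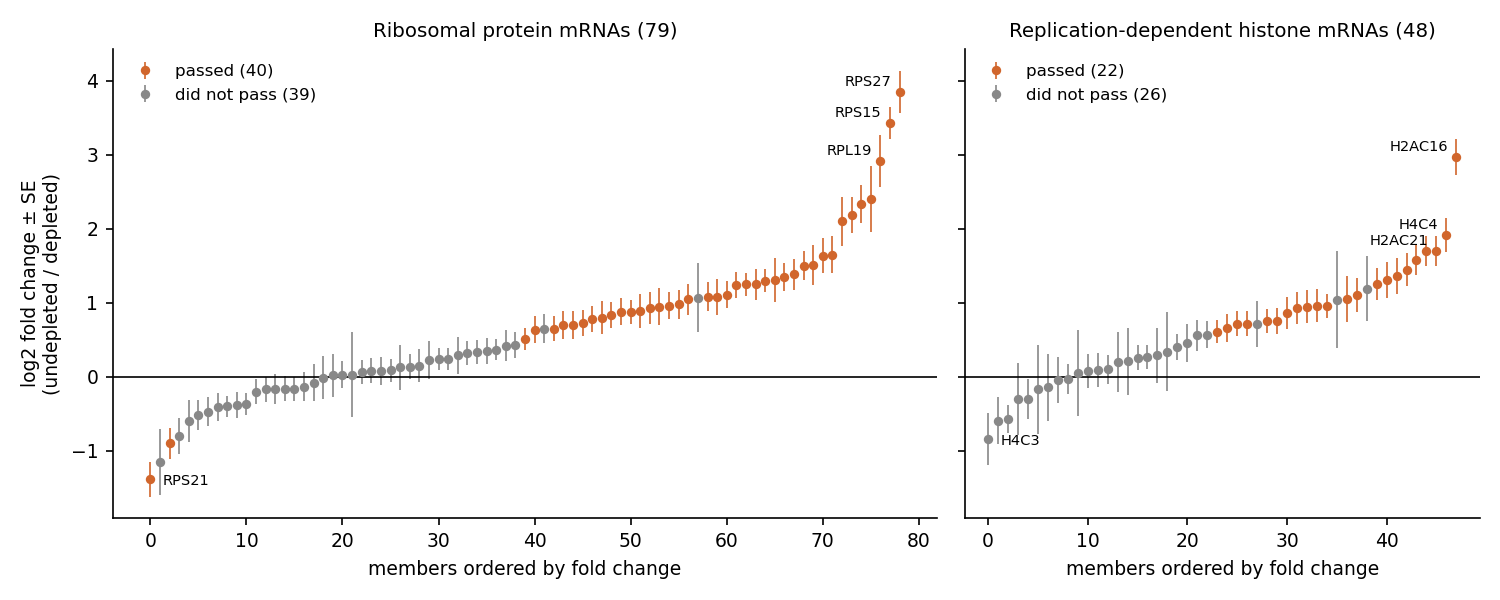
Log2 fold change with its SE for the 79 ribosomal protein genes (left) and the 48 tested histone genes (right), each ordered by fold change, with genes that passed the test in orange. RPS27 and RPS15 stand at 3.85 and 3.43 and RPS21 at -1.38, and H2AC16 stands above the other histones at 2.97.

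Nuclear genes of oxidative phosphorylation gave a like picture. Of 72 tested, 22 were higher and 4 lower with a median of 0.42 (35 and 9 of 73 with the block, 10 and 1 without undepleted replicate 2, 12 and 1 without undepleted replicate 3), and the median was -0.09 without the composition scaling. The higher and lower genes were 30.6% and 5.56% of those tested, beside 7.89% and 3.48% of all genes (16.8% and 16.3% with the block). NDUFS5, an accessory subunit of complex I, was at 29.1, 10.1, 17.3 and 19.9 CPM in depleted and 181, 149 and 155 CPM in undepleted libraries (3.11 ± 0.29, adjusted p = 7.56e-05). NDUFS6, also of complex I, was at 2.23. SDHD, the membrane anchor of complex II, was lower at -1.25 (adjusted p = 0.00717). NDUFB5 at -1.06 (adjusted p = 0.0373) was lost in 6 of the 7 fits that each left out a library, where its adjusted p was 0.0562 to 0.104, and was kept without depleted replicate 1.

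Globin genes, which mark the erythroid programme of K562, differed one by one. HBA1, an alpha globin, was at 1.63, 0.895, 1.13 and 3.55 CPM in depleted and 18.1, 22.1 and 12 CPM in undepleted libraries (3.32), and HBZ, the embryonic zeta globin, at 19.3, 16.8, 22.3 and 36.6 CPM against 86.2, 136 and 115 CPM (2.25). Neither gene's groups overlapped. HBE1, the embryonic epsilon globin, was at 0.96 and HBG1, a fetal gamma globin, at 0.87. The call of HBG1 was lost without undepleted replicate 2 (adjusted p = 0.0605) and was -0.27 (adjusted p = 0.761) on counts over gene bodies. HBG2, the near-identical other gamma globin, was at -0.64 and did not pass, though the block called it lower (-0.79, adjusted p = 7.07e-14), and how reads were divided between the pair is uncertain. Of 23 tested erythroid genes 4 were higher and none lower (7 and 3 with the block, 2 and 0 without undepleted replicate 2), with a median of 0.15. That is 17.4% higher, beside 7.89% of all genes, which were 16.8% higher and 16.3% lower with the block. As everywhere in bulk libraries, the number of cells behind a value and the RNA per cell cannot be told apart.

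Of 20 genes of the membrane skeleton and large actin scaffolds, 4 were higher and none lower (median 0.36, and -0.12 without the composition scaling). That is 20% higher, beside 7.89% of all genes. The block called 14 higher, and 1 was left without undepleted replicate 2 or 3, 2 without depleted replicate 2, 3 or 4 and 8 without depleted replicate 1. MYH9, the heavy chain of nonmuscle myosin, was at 291, 156, 173 and 205 CPM in depleted and 464, 428 and 613 CPM in undepleted libraries (1.28, adjusted p = 0.00395). DBN1, an actin-binding protein, was at 1.26, lost without undepleted replicate 2 (adjusted p = 0.0573) or 3 (0.0965). SPTAN1, a spectrin, and ACTN4, an actinin, were at 0.69 and 0.61. SPTBN1, the beta spectrin, was at 0.54 (adjusted p = 0.0712), and 2.17e-11 with the block.

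Genes of the endoplasmic reticulum, where secreted and membrane proteins are made, moved little. Of 41 tested 1 was higher and 4 lower, with a median of -0.03. That is 2.44% and 9.76%, beside 7.89% and 3.48% of all genes (16.8% and 16.3% with the block). The block gave 9 and 12, none was called without undepleted replicate 2 or without undepleted replicate 3, and 2 or 3 were without depleted replicate 2, 3 or 4. DNAJB11, a co-chaperone, was at 0.88, SPCS3 of the signal peptidase at -0.87 and SSR1 of the translocon at -0.76, with adjusted p of 0.0728 to 0.123 for these genes without undepleted replicate 2 or 3. DNAJB11 was also lost without depleted replicate 2 (0.0547) or 4 (0.0523). The chaperone HSPA5 was at 1026, 721, 1042 and 995 CPM in depleted and 823, 966 and 1003 CPM in undepleted libraries (-0.02, adjusted p = 0.95), with the groups interleaved. Of 33 translation factor genes 3 were higher and 2 lower, or 9.09% and 6.06% beside 7.89% and 3.48% of all genes (12 and 7 genes with the block). The called genes included the eIF3 subunits EIF3G (1.07), EIF3B (0.85) and EIF3M (-0.76). With undepleted replicate 2 or 3 left out, 1 was higher and none lower (EIF3B at adjusted p of 0.0513 and 0.0766, EIF3M at 0.109 and 0.0789), with depleted replicate 2 or 3 left out 2 and 1, and with undepleted replicate 1 left out 6 and 2. Of 25 short-lived mRNAs 4 were higher and none lower with a median of 0.21 (9 and 2 with the block, 1 and 0 without undepleted replicate 2, 2 and 0 without undepleted replicate 3, depleted replicate 3 or depleted replicate 4). That is 16% higher, beside 7.89% of all genes. Named by rule were the stress gene GADD45A (1.2, adjusted p of 0.125 and 0.109 without undepleted replicates 2 and 3) and the AP-1 subunit FOSL1 (1.14, adjusted p of 0.051 to 0.198 without depleted replicate 3 or 4 or undepleted replicate 1 or 2). The reference genes ACTB (0.24) and GAPDH (-0.26) did not pass, and were both called with the block (adjusted p = 0.0425 and 0.00459).

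Nuclear long noncoding RNAs gave 1 call among 13 tested, with a median of -0.30 (1 higher and 3 lower with the block). The call was a lower gene, or 7.69% of those tested, beside 3.48% of all genes. NEAT1, the scaffold of paraspeckles, was at 536, 566, 523 and 432 CPM in depleted and 373, 252 and 256 CPM in undepleted libraries (-0.81, adjusted p = 0.0172, lost at 0.113 without undepleted replicate 2 and at 0.105 without undepleted replicate 3). MALAT1, an abundant RNA of nuclear speckles, was at 15930, 11310, 3553 and 3450 CPM in depleted and 11630, 3951 and 4430 CPM in undepleted libraries. The libraries of prefix 1, depleted replicates 1 and 2 and undepleted replicate 1, were the high ones in both groups, and the difference of -0.36 did not pass (adjusted p = 0.754).

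Where called genes averaged 10 CPM or more and the groups did not overlap, the 8 with the largest decreases were MT-TN, 5 pseudogenes or antisense genes and 2 protein-coding genes. SNRPGP10 (chr1:205351247-205351471, plus strand), a pseudogene of an Sm protein that overlaps another gene, was at 99.1, 97.2, 137 and 113 CPM in depleted and 18.1, 15.7 and 24.0 CPM in undepleted libraries (-2.55 ± 0.22, adjusted p = 3.82e-05). The antisense genes AP002907.1, AL358115.1 and AC090971.1 were at -2.60, -2.28 and -1.94, and without a stated strand setting they cannot be told from the genes opposite. EIF4A1P10, a pseudogene of a translation factor, was at -2.21, TMEM184A at -1.77 and GLMN at -1.69. EIF4A1P10 and GLMN were lost without undepleted replicate 2 (adjusted p = 0.1 and 0.112). CDK1, the kinase that drives mitosis, was at 259, 275, 272 and 253 CPM in depleted and 119, 82.1 and 89.4 CPM in undepleted libraries (-1.46 ± 0.17, adjusted p = 0.000357). SRP9, a protein of the signal recognition particle, was at -1.42. Both were singled out after their values were seen. Among protein-coding genes down to 5 CPM, GRIP2 (-2.36) and PAX9 (-2.17) fell most, with adjusted p of 0.0733 and 0.0762 without undepleted replicate 2 and 0.0691 and 0.0557 without undepleted replicate 3. Among protein-coding genes that rose, ZNF773 stood at 0.272, 0, 0.252 and 1.18 CPM against 23.8, 28.6 and 16.4 CPM (5.74) and MYL5, a myosin light chain, at 4.85.

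The fold changes were also set beside the length and GC content of the transcripts. Of 110 tested genes with at most 200 bases of exon, 79 were higher and 2 lower, with a median of 3.36. Here too a gene near 0 in depleted libraries entered only through the undepleted ones. Without the filter on low counts 183 of 2021 were higher with a median of -1.18, and in the fit of all 19 libraries 102 of 310 with a median of 0.65. Of 2317 genes with over 8000 bases 76 were higher and 85 lower, with a median of -0.15. Among protein-coding genes alone the values followed the GC content of the longest transcript. Over all tested protein-coding genes 7.344% were higher and 3.545% lower. Of 1775 genes under 40% GC, 30 were higher and 168 lower (1.69% and 9.465%), with a median of -0.39. Of 1259 genes at 60% GC or more, 226 were higher and 7 lower (17.95% and 0.556%), with a median of 0.42. The 4 classes between had medians of -0.22, -0.04, 0.10 and 0.26 in order of GC. The same order held in each pair of the same prefix, where the lowest class had medians of -0.35, -0.38 and -0.42 and the highest 0.45, 0.39 and 0.35. Without the composition scaling the medians of the lowest and highest class were -0.89 and -0.09, so the distance between them stayed while the sign of the upper one turned. With the block the lowest class had 96 higher and 717 lower genes and the highest 415 and 20. Without undepleted replicate 2 the lowest class had 12 higher and 24 lower genes and the highest 83 and 3, and without undepleted replicate 3 12 and 22, and 84 and 4. Lower genes in the lowest class were 67, 76 and 105 without depleted replicates 2, 3 and 4, and higher genes in the highest class 143, 148 and 180.

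Across 9841 protein-coding genes the rank correlation of the fold change with GC content was 0.509, and 0.385, 0.423 and 0.366 within the 3 pairs. With exon length it was -0.193. Over all tested genes it was -0.168 with exon length, which turned to 0.138 with no filter on low counts. These are descriptions across genes, which share the same 7 libraries and are not independent replicates. With length held, the rank correlation with GC was 0.485, and with GC held that with length was -0.083. On counts over gene bodies the correlation with GC was 0.543. The median GC content was 56.2% in the 723 protein-coding genes that were higher, 40.2% in the 349 that were lower and 47.1% in the 8773 that were not called. The part of GC content in the differences of single genes named above was not tested.

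**Figure D5:**
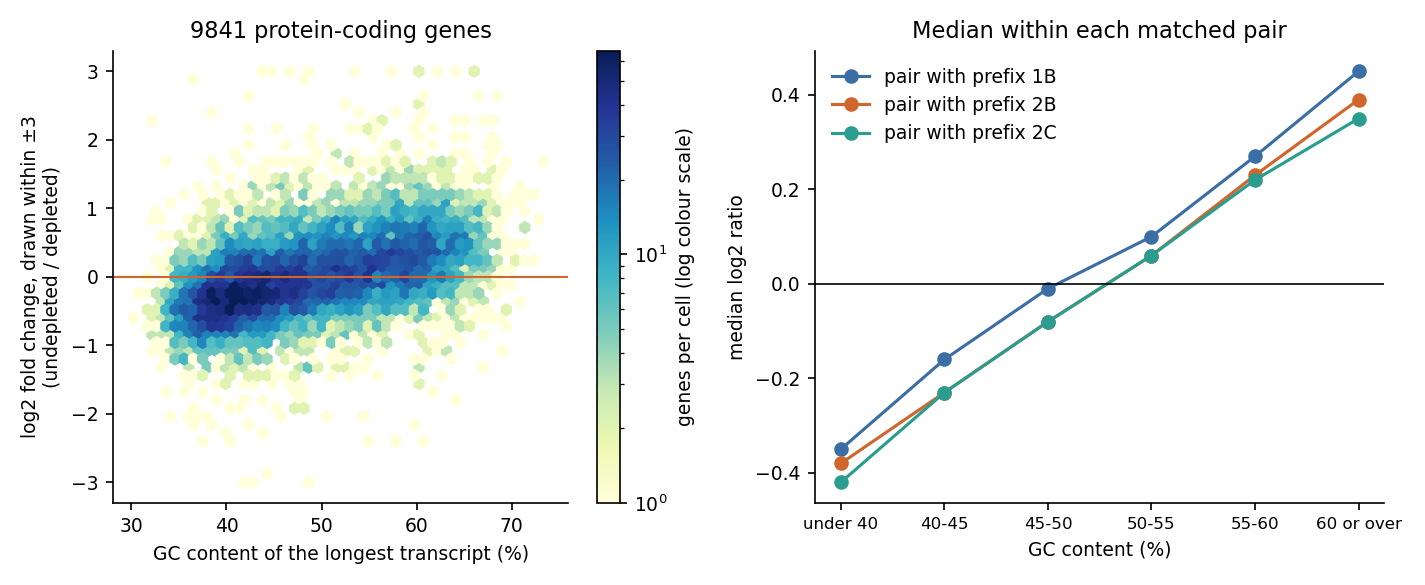
Left, log2 fold change (drawn within 3 of 0) against the GC content of the longest transcript for 9841 protein-coding genes, coloured by the number of genes per cell on a log scale. Right, median log2 ratio of each pair of libraries with the same prefix in 6 classes of GC content, which goes from -0.35, -0.38 and -0.42 in the lowest class to 0.45, 0.39 and 0.35 in the highest.

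Counts over whole gene bodies gave 1025 higher and 267 lower genes of 13502, 7.59% and 1.98% or 9.57% in either direction. With the block these were 2141 and 1935 of 13430, 15.9% and 14.4% or 30.3% in either direction. Without the block the total of 1292 calls was 495 without undepleted replicate 2, 540 without undepleted replicate 3 and 842 without depleted replicate 3. Intronic counts were taken as gene-body minus exon counts, a difference that can also reflect how reads in overlapping genes were counted. Of the snoRNA and scaRNA genes 35 could be tested on exons and 4 on gene bodies. The part of such genes in the intronic counts was not tested. Intronic counts made up 27.2%, 30.2%, 23.5% and 23.2% of gene-body counts outside mitochondrial genes in depleted and 24.3%, 20.3% and 18.8% in undepleted libraries. The groups overlapped (exact permutation p = 0.171), but each undepleted library was below its partner, with differences of -5.93, -3.20 and -4.32 percentage points. The spike-ins took 3.26%, 3.14%, 4.02% and 4.14% of the depleted and 2.86%, 2.98% and 3.09% of the undepleted counts. The undepleted share was lower in each of the 3 libraries than in any depleted one (exact permutation p = 0.0571). With rRNA genes left out of the total, the difference changed from -0.67 to 0.23 percentage points (exact permutation p = 0.857).

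Few genes were counted in the undepleted libraries alone. At least 3 counts in each undepleted library and 0 in each depleted one were found for 3 genes, RNA5-8SP6, the U6 copy RNU6-115P (at least 34.2-fold higher) and the antisense gene AP000679.1. AP000679.1 (chr11:120168977-120171679, plus strand), which overlaps another gene, had 18, 23 and 12 counts and was at least 151-fold higher. The reverse held for 182 genes, and 12642 genes had counts in all 7 libraries. Depth differed between the groups in the same direction, and its part in these numbers was not tested.

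Both kinds of wash were set against the same 4 depleted cytoplasm libraries in a fit of all 19 libraries, so these comparisons share their controls and are given side by side. MT-RNR1 was at -0.24 in the depleted and 9.97 in the undepleted wash, and RNU4-2 at 0.35 and 6.10. RPS27 was at -1.25 in the depleted wash (adjusted p = 0.0156) and 2.57 in the undepleted wash (adjusted p = 9.61e-05), and RPS15 at -1.47 and 1.92. RPL19 was at -0.77 and 2.10, RPS21 at -0.58 and -2.02, and CDK1 at -0.18 and -1.70. SPTBN1, at 4.12 and 4.61, HSPA5, at 2.05 and 1.98, and MALAT1, at 1.90 and 1.49, had the same sign in both. In that fit 15.4% of 15852 genes were called between undepleted and depleted wash, with a median absolute log2 fold change of 0.45. Between depleted wash and cytoplasm these were 43.7% and 0.53, and between undepleted wash and cytoplasm 33.7% and 0.67. The last comparison differs in both fraction and depletion and has fewer, shallower wash libraries. The percentages called are therefore no measure of how near each wash is to cytoplasm.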

How the data were processed

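The authors deposited raw read counts per gene over exons and over gene bodies, with no normalization; per the submitters' processing notes, cutadapt 2.5, STAR 2.7.0a, featureCounts 1.6.2 and hg38 were used. The sources used here do not give the annotation release, the strand setting or the handling of shared reads. Spike-ins were left out of library sizes, and 0 columns were unused. The 7 wash libraries were fitted with edgeR 4.0.16 in R 4.3.3 (filterByExpr, TMM, quasi-likelihood test). Whether replicates are separate cultures is not stated in the labels, and p-values then cover only the spread of these libraries, which may be technical. Shares were compared by two-sided exact permutation tests (scipy 1.17.1). GENCODE 29 on GRCh38 gave names and positions for 57447 identifiers and lengths and GC content for 11585 tested genes, and BLAST+ 2.17.0 found rRNA-like stretches (at least 30 bases at 90% identity). One gene and one set of sequences are not reported here.

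The pairing comes from the column prefixes 1B, 2B and 2C. Deviations from the group means correlated at 0.465, 0.272 and 0.214 within the pairs and at -0.374 to 0.171 between libraries of other prefixes. Between 2B and 2C they correlated at 0.149 and 0.171, so these 2 prefixes were hardly told apart. The deviations of a gene sum to 0 over the 3 libraries of a group, so these correlations are not independent. DESeq2 1.42.0, other scalings and filters, the block, each prefix and each library left out were the alternatives. On simulated counts for 11340 genes of this comparison the test recovered 34% of 2-fold and 97% of 4-fold changes, with 4.38% false among its calls. The changed genes, 100 per fold, had a mean of at least 5 CPM and were raised and lowered equally. No prefix effect, composition shift or GC trend was simulated, so these rates may not hold for the real calls or for genes near 0. Genes were named by rule: the 8 most changed in each direction (mean of at least 10 CPM, groups not overlapping), per list the 2 most changed called members in each direction (at least 5 CPM), and landmarks. Other list members, CDK1 and SRP9 were added with their values known. The members and lists were chosen with earlier results of these data known.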

Additional observations from a re-analysis of the deposited data

Results flagged for a closer look

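In 11 of 91 results looked at, 1 of the 4 depleted libraries lay apart from the other 3 by a gap that Dixon's test at the 95% level calls too wide. Chance gives this in about 1 in 20 groups. No undepleted library could be judged this way, since a group of 3 is too small.

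Depleted replicate 4 stood high in 5 of them, all small RNAs. The snRNA share was 0.0204% there and 0.0134 to 0.0142% in the others. RNA5SP429 was at 2.96 CPM against 0 to 0.447, RNA5SP149 at 5.91 against 0.504 to 1.09, RNY1 at 1.92 against 0.544 to 0.671 and RNU6-9 at 2.81 against 0 to 0.378 CPM.

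Depleted replicate 1, the library with no undepleted partner, stood high in 4. The mitochondrial tRNA share was 0.0600% there and 0.0478 to 0.0496% in the others. MT-TM was at 37.6 CPM against 24.5 to 26.5, RPS27 at 25.6 against 10.4 to 12.4 and DBN1 at 407 against 180 to 202 CPM.

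Depleted replicate 2 stood low in 2. The mitochondrial mRNA share was 5.27% there and 6.20 to 6.38% in the others, and HSPA5 was at 721 CPM against 995 to 1042 CPM.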

How the results depend on the processing

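The count of 1322 called genes on exons (1292 on gene bodies) changed most with the scaling, the block and the libraries. It was 4014 (5017) without the composition factor, with 10% of the exon calls higher against 69.4%, and 472 (325) with spike-in library sizes. It was 2438 (2718), of which 1237 were higher, with all 19 libraries in the fit, and 2070 (2297), of which 1025 were higher, with no low-count filter. Within prefix 1 it was 283 (210) and within prefix 2 2694 (2684). Leaving out 1 library gave 480 to 1526 (495 to 1632). With the replicate block it was 3890 (4076). DESeq2 gave 1548 (1622). The causes were not tested.

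The spike-in share difference was 0.23 percentage points (exact permutation p = 0.857), in place of -0.67, with rRNA genes out of the total. HBG1 was at -0.27 on gene-body counts, and the rank correlation with exon length was 0.138 with no filter. The other share differences kept their sign in the alternatives run. Of 1521 values of 79 named genes under alternatives, 1366 kept direction and side of the threshold, 123 no longer passed it, 31 newly passed it and 1 turned. Wash against cytoplasm was added after seeing the data. Undepleted libraries, at 923464 to 1801293 counts, limit what can be seen in low genes.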
